A study of Drosophila melanogaster with 3 samples.

Results

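The Drosophila melanogaster genome annotation holds 290 transfer RNA (tRNA) genes on the arms 2L, 2R, 3L, 3R, 4 and X, and these genes are described here by the binding of the CG12071 protein at and around them. The genes were taken from Ensembl release 115 (BDGP6.54) by their tRNA biotype, out of 18164 annotated genes other than transposable elements, and the 5 tRNA pseudogenes were not counted. Genes less than 2 kb apart were joined into 159 clusters. Binding was measured with ChIP-seq, the sequencing of DNA that is immunoprecipitated with a protein, in 3 biological replicates of 1 group, which were whole embryos of both sexes collected at 12 to 24 hours. All of them came from 1 transgenic line that expresses CG12071 with green fluorescent protein (GFP) at its C-terminus, with chromatin sheared to fragments of 200 to 800 bp. The antibody field of the labels names CG12071, while the promoter driving the transgene is not stated in the sources used. The series has no second condition, so no contrast and no test between groups was possible, and the spread between the 3 replicates is the error given below. A tRNA gene was counted as having an entry of a peak list when the summit of that entry, the position of its highest signal, lay inside the gene or within 100 bp of it.

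Transfer RNAs carry amino acids to the ribosome and read codons through a 3-base anticodon. Their genes are transcribed by RNA polymerase III from promoters that lie inside the gene, an A box and a B box that the factor TFIIIC recognises, after which TFIIIB is placed just upstream and recruits the polymerase. Transcription stops at a run of T bases just after the gene. Most tRNAs are encoded by several identical or near-identical genes, often grouped in clusters and often lying in introns of protein-coding genes.

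The bases around 4 of the peaks described here are shown to let the position of the summit be read against the tRNA gene. Each sequence runs 5′ to 3′ on the strand of the tRNA gene, holds 299 bases with the summit at the middle base, and was read from release 6 of the genome as RefSeq holds it. Capitals mark the bases of tRNA genes. The window of tRNA:Asp-GTC-1-5 is chr2L:8541696-8541994 on the plus strand, that of tRNA:Ser-AGA-2-4 is chr2L:3172958-3173256 on the minus strand, that of tRNA:Pro-TGG-1-2 is chr3R:17619777-17620075 on the plus strand, and that of tRNA:Glu-CTC-2-3 is chr3L:22847720-22848018 on the minus strand. In the Asp window the summit falls just after the gene, and in the other windows it falls in the bases before it. The Pro window opens with the end of the neighbouring gene tRNA:Ala-AGC-2-2.
tRNA:Asp-GTC-1-5: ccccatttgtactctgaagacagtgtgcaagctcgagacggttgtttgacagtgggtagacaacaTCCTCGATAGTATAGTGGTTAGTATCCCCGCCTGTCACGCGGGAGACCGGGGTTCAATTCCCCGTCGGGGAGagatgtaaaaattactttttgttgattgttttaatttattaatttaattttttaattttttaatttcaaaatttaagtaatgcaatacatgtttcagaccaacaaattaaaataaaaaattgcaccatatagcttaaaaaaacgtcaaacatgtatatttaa
tRNA:Ser-AGA-2-4: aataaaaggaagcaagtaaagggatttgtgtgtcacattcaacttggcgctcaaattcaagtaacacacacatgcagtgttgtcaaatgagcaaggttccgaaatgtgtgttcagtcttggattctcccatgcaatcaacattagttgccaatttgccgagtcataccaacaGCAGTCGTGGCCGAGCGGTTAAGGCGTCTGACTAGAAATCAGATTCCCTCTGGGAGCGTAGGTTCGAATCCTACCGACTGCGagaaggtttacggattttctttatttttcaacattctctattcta
tRNA:Pro-TGG-1-2: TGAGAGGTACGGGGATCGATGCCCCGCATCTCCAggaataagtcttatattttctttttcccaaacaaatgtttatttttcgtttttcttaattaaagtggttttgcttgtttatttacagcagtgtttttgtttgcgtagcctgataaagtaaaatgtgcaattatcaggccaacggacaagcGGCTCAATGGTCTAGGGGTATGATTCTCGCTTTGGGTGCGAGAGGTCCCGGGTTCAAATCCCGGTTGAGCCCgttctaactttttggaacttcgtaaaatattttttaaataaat
tRNA:Glu-CTC-2-3: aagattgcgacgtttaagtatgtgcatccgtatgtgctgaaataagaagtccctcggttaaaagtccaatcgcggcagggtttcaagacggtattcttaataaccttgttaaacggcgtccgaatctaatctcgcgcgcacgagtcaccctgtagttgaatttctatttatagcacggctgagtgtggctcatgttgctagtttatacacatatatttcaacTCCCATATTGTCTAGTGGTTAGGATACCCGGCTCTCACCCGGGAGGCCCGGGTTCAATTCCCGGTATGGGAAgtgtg

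Before the results, the replicates need to be set side by side, because replicate 3 stood apart at tRNA genes. The list of each replicate and the list of the pooled reads held 30000 entries, peaks and background together. The thresholded list held 4261 peaks, kept by the authors' reproducibility filter (irreproducible discovery rate, IDR). All of them were among the 4261 strongest pooled entries, so a peak of this list need not be strong in each replicate. At a q-value of 0.05 or less, the lists held 13828 entries in replicate 1, 12616 in replicate 2, 4015 in replicate 3 and 10242 in the pooled list. Sequencing depth is unknown, and its part in the difference between replicates was not tested. All lists were called against 1 shared control. In the labels, 1 text line calls each replicate an input control, but the assay, antibody and control fields describe an immunoprecipitation, which is how the replicates were treated. Counts for tRNA genes are therefore given for each replicate, and those of the thresholded list also without replicate 3.

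The thresholded list placed CG12071 at few tRNA genes. It held a summit within 100 bp of 11 of the 290 genes (3.79%, Wilson 95% interval 2.13 to 6.66%), against 0.866% of 489495 consecutive windows of 273 bp that tile the same arms, which is 4.38 times the share of the windows. A window of 273 bp has the length of a median tRNA gene of 73 bp with 100 bp on each side. The 11 genes belonged to 10 distinct peaks in 10 clusters, and 1 peak served the adjacent genes tRNA:Phe-GAA-1-4 and tRNA:Phe-GAA-1-5. All 10 peaks were 370 bp wide, which was also the commonest entry width and so not particular to them. When peaks are ranked by signal, the tRNA peaks lay between rank 1505 and rank 4231 of 4261, with a median rank of 2636, so none was among the strongest peaks of the protein. No tRNA gene had an entry among the 1000 strongest of any replicate.

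The tRNA peaks of the thresholded list rested on replicates 1 and 2. A replicate was taken to support a peak when a summit among its 4261 strongest entries lay within 100 bp of the peak's summit. Replicate 1 supported 10 of the 10 tRNA peaks, replicate 2 supported 7 and replicate 3 supported 0, whereas the corresponding shares of all thresholded peaks were 76.8%, 80% and 69.7%. Replicate 3 had no entry of any strength within 100 bp of 7 of the 10 summits, while it had one for 85.3% of all thresholded peaks. Among the 2757 thresholded peaks from the rank of the strongest tRNA peak on, replicate 3 supported 56.9% and had an entry at 80.2%. Support by all 3 replicates was found for 0 of 10 tRNA peaks, for 25.8% of the peaks in that range of ranks and for 48.5% of all thresholded peaks. With replicate 3 set aside, 2758 thresholded peaks were supported by both replicates 1 and 2, and 7 of them lay at 8 tRNA genes. With replicate 1 or replicate 2 set aside, and support by both others required, the count was 0 tRNA genes in each case. This follows from the 0 peaks supported by replicate 3 and is no separate result.

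**Figure D1:**
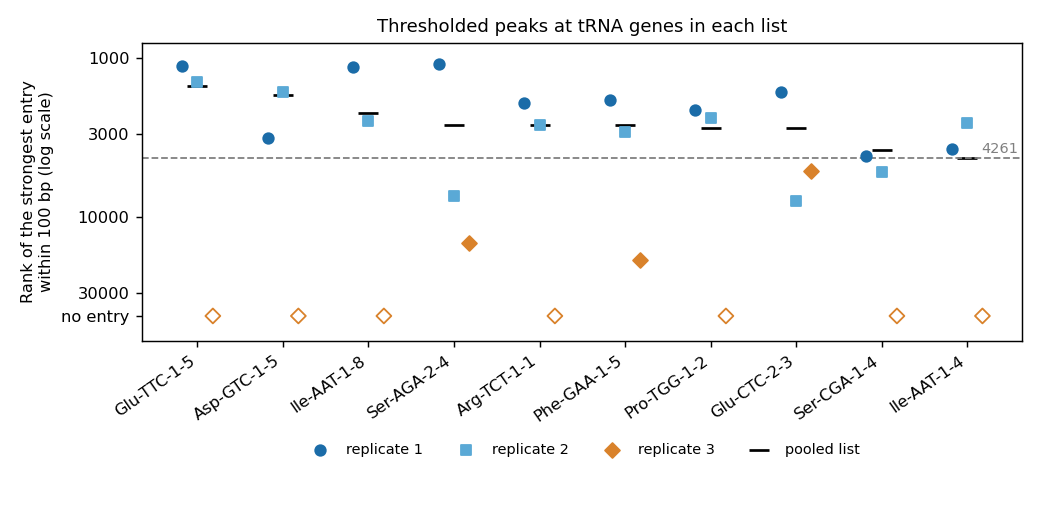
The rank by signal (log axis, strongest at the top) of the 10 thresholded tRNA peaks is plotted in the pooled list and in each replicate, with the dashed line at rank 4261 and open diamonds where replicate 3 had no entry within 100 bp. Replicate 1 lies above the line at all 10 peaks and replicate 2 at 7, and the 3 entries of replicate 3 lie beyond it at ranks 5168, 14605 and 18698.

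The strongest tRNA peak was at tRNA:Glu-TTC-1-5 (FBgn0011849, chr2R:19727460-19727531), an intergenic glutamate tRNA gene, and ranked 1505 with a pooled signal of 290. Its rank was 1119 in replicate 1 and 1420 in replicate 2, with no entry in replicate 3. The replicate 1 entry lay 35 bp from the thresholded summit and farther than 100 bp from the gene. Within 100 bp of the gene, the strongest entry of replicate 1 ranked 8928 with a q-value of 0.0061. The summit lay 92 bp beyond the 3′ end of the gene, 13292 bp from the nearest protein-coding transcription start site (TSS), that of CG8517. The next peak was at tRNA:Asp-GTC-1-5 (FBgn0051603, chr2L:8541761-8541832), an intergenic aspartate tRNA gene, with a pooled rank of 1714 and a signal of 268. It ranked 3180 in replicate 1 and 1625 in replicate 2 and was without an entry in replicate 3. Its summit was 13 bp past the gene and 302 bp from the TSS of Sema1a, which encodes a transmembrane semaphorin that guides axons.

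Entries of any strength in replicate 3 were found at 3 of the 10 peaks, all at intergenic genes with the summit upstream. At tRNA:Ser-AGA-2-4 (chr2L:3173003-3173084), a serine tRNA gene, the pooled rank was 2627 and the replicate ranks were 1090, 7417 and 14605. Its q-values were 8.90e-05, 0.0048 and 0.32 in replicates 1, 2 and 3, and the summit was 23 bp from the gene. Replicate 1 placed this peak high and replicate 3 among weak entries, and the mean rank was 7704 ± 6762 (SD, n = 3). The phenylalanine pair tRNA:Phe-GAA-1-4 and tRNA:Phe-GAA-1-5 (chr2R:17604771-17604843) had a pooled rank of 2644 and ranks of 1825, 2933 and 18698 in replicates 1, 2 and 3, with a q-value of 0.37 in replicate 3. The peak of tRNA:Glu-CTC-2-3 (chr3L:22847725-22847796), a glutamate gene with another anticodon, had a pooled rank of 2751 and ranks of 1632, 7905 and 5168, with a q-value of 0.092 in replicate 3. The replicate 3 entries were therefore all above a q-value of 0.05, although their summits fell 6, 1 and 3 bp from the thresholded ones.

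The other 5 peaks had no replicate 3 entry within 100 bp. Both isoleucine peaks, at tRNA:Ile-AAT-1-8 and tRNA:Ile-AAT-1-4, and the serine peak at tRNA:Ser-CGA-1-4 belonged to genes in introns on the opposite strand of their host. The host of the isoleucine genes was ATP8A, which encodes a phospholipid flippase, and that of the serine gene was hts, which encodes the cytoskeletal protein adducin. The peak of tRNA:Ile-AAT-1-8 (chr2R:13437866-13437939) had a pooled rank of 2204 and ranks of 1144 and 2478 in replicates 1 and 2, with its summit inside the tRNA gene. The peak of tRNA:Ser-CGA-1-4 (chr2R:19414598-19414679) had a pooled rank of 3814 and ranks of 4144 and 5212, and its summit was also inside the gene. That of tRNA:Ile-AAT-1-4 (chr2R:13430984-13431057) was the weakest of the 10, with a pooled rank of 4231, a signal of 152 and ranks of 3721 and 2564. The intergenic arginine gene tRNA:Arg-TCT-1-1 (chr2R:11652367-11652439), whose sequence occurs once in the genome's tRNA genes, had a pooled rank of 2628 and ranks of 1922 and 2644, and its summit was 22 bp upstream. Each of these peaks was at a q-value of 0.05 or less in both replicates 1 and 2. The intergenic proline gene tRNA:Pro-TGG-1-2 (chr3R:17619961-17620032) had a pooled rank of 2742 and ranks of 2119 and 2367, and its summit was 35 bp upstream. Just outside the thresholded list, the strongest pooled entries were at the leucine gene tRNA:Leu-CAG-1-2, at rank 5380 with a q-value of 0.0038, and at tRNA:Ile-AAT-1-6, at rank 5504 with a q-value of 0.0041. Neither had an entry in replicate 3, and their ranks were 5453 and 4926, and 3197 and 3137, in replicates 1 and 2.

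The same split between replicates held when all tRNA genes were counted in lists of equal length. Among the 4261 strongest entries of each replicate, 19 tRNA genes had one in replicate 1 (6.55%, 4.23 to 10%), 10 in replicate 2 (3.45%, 1.88 to 6.23%) and 1 in replicate 3 (0.345%, 0.0609 to 1.93%). The genome windows stood at 0.867%, 0.866% and 0.867% in the 3 lists, which puts the tRNA genes at 7.56 and 3.98 times the windows in replicates 1 and 2 and at 0.398 times in replicate 3. The mean share over replicates was 3.45% ± 3.1 (SD, n = 3), and the mean ratio to the windows was 3.98 ± 3.58. The spread between replicates is thus nearly as large as the mean, and over 3 replicates the tRNA genes were not separated from the genome windows beyond that spread.

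With entries of q-value 0.05 or less, the counts of tRNA genes in replicates 1 and 2 were larger. Replicate 1 had such an entry at 60 genes (20.7%, 16.4 to 25.7%) against 2.80% of the windows, and replicate 2 at 54 genes (18.6%, 14.6 to 23.5%) against 2.55%, which are 7.4 and 7.3 times the windows. Replicate 3 had one at 1 gene (0.345%, 0.0609 to 1.93%) against 0.817% of the windows, or 0.422 times. With entries of any strength the counts were 79 genes (27.2%) in replicate 1, 83 genes (28.6%) in replicate 2 and 9 genes (3.1%) in replicate 3, against 6.02%, 6.02% and 6.07% of the windows. In the pooled list, which sums all 3, any entry was found at 59 genes (20.3%) against 6.03% of the windows. Replicate 3 was below the windows under each of these 3 rules, including lists of the same length, and replicates 1 and 2 were above them under each. For the strongest entries and at a q-value of 0.05, replicate 3 rested on the same 1 gene, and its interval covered the share of the windows. The direction in replicate 3 also depended on the distance allowed. For its 4261 strongest entries the ratio to the windows was 0.398 at 100 bp, 1.72 at 250 bp and 1.37 at 500 bp. Both wider ratios lay within the Wilson interval of the ratio at 100 bp, so this turn was not beyond counting error. At 250 and 500 bp the ratios were 7.67 and 5.48 in replicate 1 and 4.98 and 3.36 in replicate 2. The cause of the difference between replicates was not tested. The intervals cover counting error only, and genes of a cluster can share a peak, so genes are not independent.

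**Figure D2:**
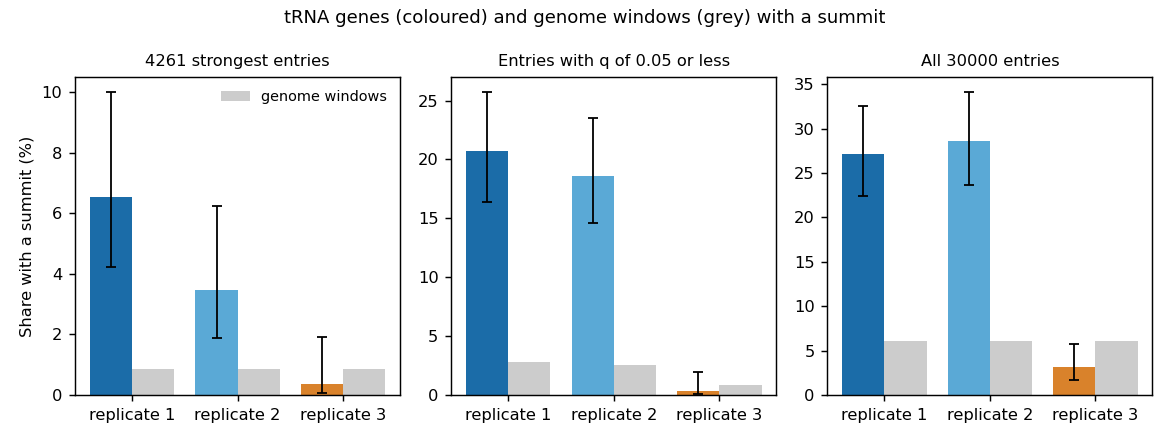
The percentage of the 290 tRNA genes with an entry within 100 bp is plotted for each replicate under 3 rules for entries, with Wilson 95% intervals as error bars and the percentage of consecutive 273 bp genome windows in grey. Replicates 1 and 2 lie above the windows under each rule. Replicate 3 lies below them, at 0.345%, 0.345% and 3.1%, with intervals that cover the windows except for entries of any strength. For the strongest entries this direction turned at limits of 250 and 500 bp, though within the Wilson interval of the ratio at 100 bp.

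The only tRNA gene with an entry of q-value 0.05 or less in replicate 3 was tRNA:Thr-AGT-1-2, a threonine tRNA gene, where the entry ranked 3390 with a q-value of 0.032. It lay 25 bp upstream of the gene. A thresholded peak there ranked 1756 and was supported by all 3 replicates, at ranks 1411, 1086 and 3390, but its summit was 112 bp from the gene and so outside the limit of 100 bp. That gene was not among the 11. Peaks a little farther out had other support. Between 101 and 250 bp from a tRNA gene lay 9 thresholded peaks, of which 5 were supported by replicate 3, 4 by all replicates, and 5 were within 500 bp of a protein-coding TSS. The strongest of them, at rank 63 with a signal of 1372 and replicate ranks of 38, 67 and 112, was 197 bp upstream of tRNA:Tyr-GTA-1-8 and 247 bp from the TSS of CG8036.

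Summits lay on both sides of the tRNA genes. Of the 10 thresholded summits, 5 were upstream of the 5′ end, 2 inside the gene and 3 beyond the 3′ end, and their median position was 9 bp downstream of the 5′ end, with a range from -78 to 163 bp, negative values being upstream. With a limit of 250 bp, 13 of 19 summits were upstream. Among the 4261 strongest entries of replicate 1, 12 of 19 summits within 100 bp were upstream, against 3 of 10 in replicate 2, so within 100 bp these replicates differed in the commonest side. With the limit at 250 bp, 20 of 28 summits of replicate 1, 10 of 18 of replicate 2 and 5 of 8 of replicate 3 were upstream. Given per 100 kb of sequence, summits of replicate 1 numbered 18.2 inside tRNA genes, 41.4 at 1 to 50 bp and 11.1 at 51 to 100 bp, and those of replicate 2 numbered 13.6, 20.7 and 3.71, against 3.19 over whole arms. In replicate 3 the same distances held 0, 3.45 and 0 per 100 kb, and 14.6 at 151 to 250 bp, where 6 summits lay. The highest density of replicates 1 and 2 was thus next to the genes, and that of replicate 3 was farther out, each on few summits.

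**Figure D3:**
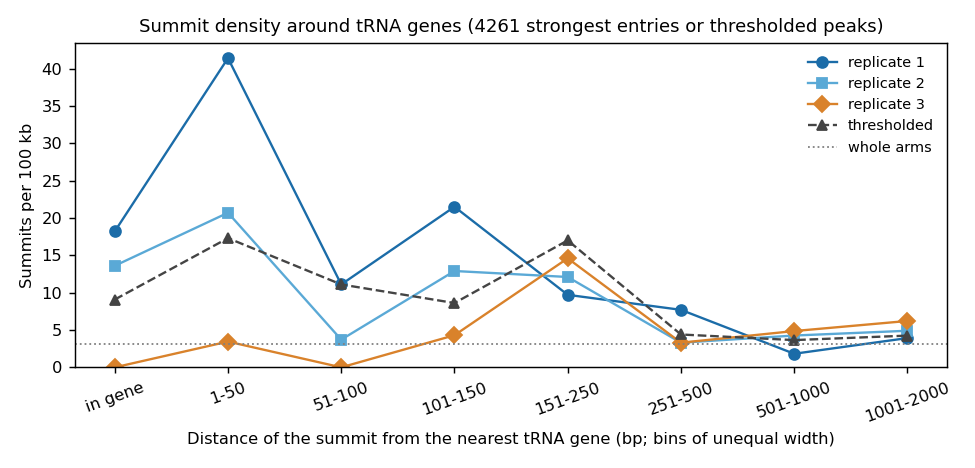
Summits per 100 kb are plotted against distance from the nearest tRNA gene (bins of unequal width) for the thresholded list and the 4261 strongest entries of each replicate, with the level over whole arms as a reference. Replicates 1 and 2 reach 41.4 and 20.7 per 100 kb at 1 to 50 bp, where replicate 3 has 3.45.

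Entries at tRNA genes were also found far from protein-coding promoters. Of the 10 peaks, 2 lay within 500 bp of a protein-coding TSS (20%), against 40.7% of all thresholded peaks. Of the tRNA genes themselves, 11.4% of all 290 and 18.2% of the 11 with a peak lay that near. The 10 peaks were chosen for lying beside tRNA genes, so a share below that of all peaks is no separate result. Of the 257 tRNA genes farther than 500 bp from a TSS, 9 had a thresholded peak (3.5%) against 0.575% of windows that far from a TSS, and of the 33 nearer genes 2 had one (6.06%) against 2.96%. For entries of q-value 0.05 or less in replicate 1, the far genes stood at 19.8% against 1.94% of far windows and the near genes at 27.3% against 8.97%. In replicate 2 these were 16.7% against 1.89%, and 33.3% against 7.32%. The far genes were 10.2 and 8.85 times the far windows in replicates 1 and 2, and the near genes were 3.04 and 4.55 times the near windows.

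The 69 clusters of several tRNA genes were marked more often than single genes in replicates 1 and 2. In the thresholded list 7 of the 69 clusters (10.1%) and 3 of the 90 lone genes (3.33%) had a peak, and no cluster had more than 1. Counted by gene, this was 4.0% of the 200 clustered genes and 3.33% of the 90 lone ones. For entries of q-value 0.05 or less the shares by gene were 25.5% in clusters and 10% for lone genes in replicate 1, and 23.0% and 8.89% in replicate 2. Replicate 3 had its only such gene in a cluster of 2. Several separate entries in 1 cluster were found in 11 clusters of replicate 1 and 8 of replicate 2, with at most 5 and 4 entries.

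The largest clusters differed among themselves. The cluster at chr2R:19725620-19728958, with 5 glutamate and 2 initiator methionine genes, had entries of q-value 0.05 or less at 4 of 7 genes in both replicate 1 and replicate 2. These were 5 and 4 separate entries, and the strongest thresholded tRNA peak lies in this cluster. The cluster at chr2R:13430282-13432794, with 5 isoleucine and 2 leucine genes, had them at 3 and 4 of its 7 genes. The cluster of 5 genes at chr3R:17617761-17620216, for alanine, proline and valine, had them at 3 genes in each of these replicates. Its equal in size at chr2R:6161535-6162753, with 3 asparagine genes, 1 arginine gene and 1 lysine gene, had them at 0 and 2 genes. The cluster of 4 cysteine and 2 lysine genes at chr3L:3095737-3097590 had them at 3 genes in replicate 1 and at none in replicate 2. By contrast, the cluster of 6 genes at chr3R:8139533-8141042, with 5 arginine genes and 1 asparagine gene, and that of 7 genes at chrX:14014814-14017284, with 5 arginine and 2 serine genes, had none in any replicate. None of these clusters had such an entry in replicate 3.

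**Figure D4:**
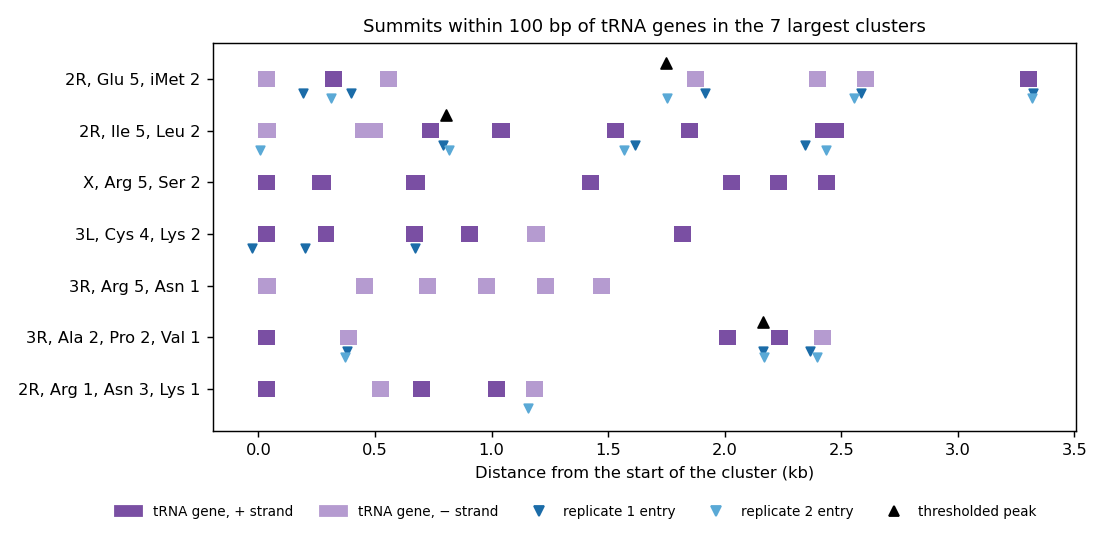
The largest tRNA gene clusters are drawn to scale in kb from the first gene, with bars for tRNA genes by strand. Downward triangles mark entries of q-value 0.05 or less in replicates 1 and 2, and black upward triangles mark thresholded summits. Replicate 3 had no such entry in these clusters, and 2 clusters with 5 arginine genes each have none in any replicate.

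Arginine genes of the X cluster, which had no entry of q-value 0.05 or less, are shown so that their letters can be set against those of marked genes. The weaker entries included 1 in replicate 1 inside tRNA:Arg-TCG-2-1, at rank 15601 with a q-value of 0.078. Of its 5 arginine genes, 4 are identical, and the other differs from them by T13C, counted from 1 at the 5′ end with tRNA:Arg-TCG-2-1 as the first sequence. The genes lie at chrX:14014814-14014886 and chrX:14016203-14016275 on the plus strand, and capitals mark GGTTCGA, the common form of the B box core searched for here. These letters were therefore also present in a cluster without an entry at that q-value.
tRNA:Arg-TCG-2-1: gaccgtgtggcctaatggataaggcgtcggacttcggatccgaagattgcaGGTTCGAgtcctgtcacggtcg
tRNA:Arg-TCG-3-1: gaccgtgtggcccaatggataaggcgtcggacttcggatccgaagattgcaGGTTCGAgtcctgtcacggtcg

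The letters GGTTCGA were found in 145 of the 290 tRNA genes (50%) and in 6 of the 11 genes with a thresholded peak (54.5%). A run of TTTT within 20 bp after the gene, where transcription ends, was found after 83.8% of all tRNA genes and 90.9% of the 11. Within 50 bp of the summit on either strand, GGTTCGA was present at 3 of the 10 tRNA peaks, against 0.868% of all thresholded peaks and 0.649% of genome windows of 101 bp. These 3 were the peaks of the intronic isoleucine and serine genes. The 10 peaks were chosen for lying beside tRNA genes, 50% of which hold these letters. A higher share than in other peaks or windows therefore follows from that choice and is no separate result. The letters GAGAG, bound by the GAGA factor, were present at 1 of the 10, that of tRNA:Asp-GTC-1-5, against 15.4% of thresholded peaks and 11.4% of windows. TATCGATA, the core of the DNA replication-related element found at many fly housekeeping promoters, was at 0 of the 10, against 0.634% and 0.275%. These motifs were matched as exact letters and none contains another.

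The marked genes spread over many isotypes, the classes of tRNA by the amino acid carried. Thresholded peaks covered 7 of 22 isotypes, with 2 genes each for glutamate, isoleucine, phenylalanine and serine and 1 each for arginine, aspartate and proline. Entries of q-value 0.05 or less covered 20 isotypes in replicate 1 and 19 in replicate 2, against 1 in replicate 3. Isoleucine had the highest such share among isotypes with more than 10 genes, at 5 of 11 genes in each of replicates 1 and 2. These were not all the same genes. Those with an entry in both were tRNA:Ile-AAT-1-4, tRNA:Ile-AAT-1-6 and tRNA:Ile-AAT-1-8, all in introns of ATP8A. Glutamate had 6 of 19 genes in each and leucine 7 and 6 of 22. Elongator methionine, with 6 genes, and selenocysteine, with 1, had none in any replicate. Counts for cysteine, 3 and 0 of 7 genes, and tryptophan, 4 and 1 of 8, differed between replicates 1 and 2, so the order of isotypes was not stable. Genes of 1 cluster can enter these counts together.

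**Figure D5:**
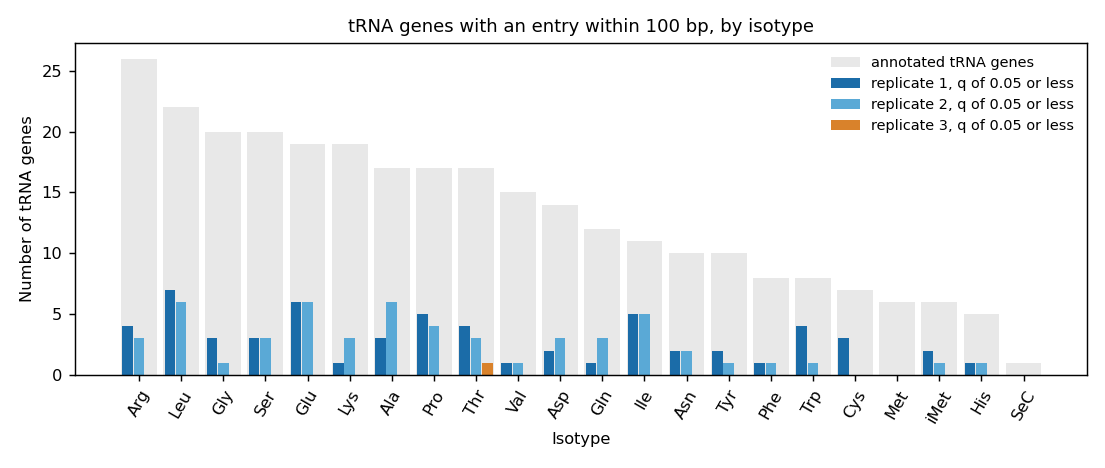
The number of tRNA genes of each isotype with an entry of q-value 0.05 or less is plotted for each replicate beside the number of genes. Leucine, glutamate and isoleucine reach 5 to 7 genes in replicates 1 and 2, and replicate 3 has 1 threonine gene.

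Identical copies can matter to these counts, since a read from 1 copy may fit several, and the treatment of such reads is not stated in the sources used. A tRNA gene had a median of 5 identical copies, itself included, and at most 13, and 52 genes had a sequence found once. Those single-copy genes had entries of q-value 0.05 or less at 19.2% in replicate 1, 17.3% in replicate 2 and 0% in replicate 3. Genes with 5 or more copies stood at 20%, 18.3% and 0.556%, and genes with 2 to 4 copies at 24.1%, 20.7% and 0%. The split between replicates was thus also seen in single-copy genes. Copies were counted only when identical over the whole gene, so a single-copy gene can still share long stretches with other tRNA genes. The part of reads that fit several genes was not tested. In the thresholded list 1 of the 52 single-copy genes had a peak, tRNA:Arg-TCT-1-1. By arm, the peaks were 6 on 2R, which holds 98 of the genes, 2 on 2L, 1 each on 3L and 3R, and 0 on X with 24 genes. Inside protein-coding genes lay 46.2% of all tRNA genes and 27.3% of the 11.

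Other short genes gave a mixed picture. None of the 96 annotated 5S rRNA genes and none of the 4 U6 and U6atac genes had a thresholded peak within 100 bp. The share of the 273 bp windows was 0.866%, so counts of 0 in so few genes do not set these classes apart. Both classes are transcribed by RNA polymerase III, the first from an internal promoter that also needs TFIIIA and the second from upstream promoters. The 5S genes are tandem repeats, and how reads of repeats were placed is not known. Of the 6 genes for the RNAs of the signal recognition particle, the 7SK particle, RNase P and RNase MRP, 2 had a peak (33.3%). Their median length was 340 bp, so their windows were longer than 273 bp, and the share rests on few genes. The 2 peaks differed in strength. That of snRNA:7SKa, whose RNA restrains the elongation factor P-TEFb, ranked 660 with replicate ranks of 374, 1496 and 874, and so was supported by replicate 3. That of RNaseMRP:RNA, the RNA of an enzyme that processes ribosomal RNA, ranked 3399 with ranks of 3106, 4779 and 6028. Among other short genes, most of them made by RNA polymerase II, 3 of 269 snoRNA genes (1.12%), 0 of 26 other snRNA genes and 1 of 260 microRNA precursors (0.385%) had a peak, against 0.866% of the 273 bp windows. Their median lengths were 134, 162 and 92 bp, longer than the 73 bp of tRNA genes, so their own windows were longer too. Entries of any strength were found at 14, 15 and 9 snoRNA genes (5.2%, 5.58% and 3.35%) and at 16, 16 and 14 precursors (6.15%, 6.15% and 5.38%) in replicates 1, 2 and 3. These shares were near or below the 6.02%, 6.02% and 6.07% of the windows, whereas tRNA genes stood at 27.2%, 28.6% and 3.1%. Other snRNA genes had such entries at 4, 5 and 2 of 26 (15.4%, 19.2% and 7.69%), above the windows in each replicate, on few genes.

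Of all protein-coding genes, 13.4% (1869 of 13945) carried a thresholded peak with its summit at most 500 bp from a TSS. Genes whose proteins make, modify or charge tRNAs were near this background share, apart from the mitochondrial list below. For the cytoplasmic aminoacyl-tRNA synthetases, which load the amino acids, the count was 4 of 20 (20%). These were IleRS, at rank 1098 with replicate ranks of 2158, 981 and 941, GluProRS at rank 1416, SerRS at rank 2445 and ThrRS at rank 3245. ThrRS had ranks of 5643 and 2553 and no entry in replicate 3, and the peak near GluProRS was closer to the TSS of AP-1sigma. Of the mitochondrial synthetases 0 of 16 (0%) had a peak, below the background share, on few genes. For the polymerase and its factors it was 3 of 19 (15.8%). These were Bdp1 and Brf, both subunits of TFIIIB, at ranks 792 and 1176, and Polr3E, a subunit of the polymerase, at rank 1126. Each of those peaks was supported by all 3 replicates, and each was closer to the TSS of another gene, CG6565, sds22 and CG10584 in that order.

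For tRNA processing and modification the count was 5 of 31 (16.1%), and 3 of these peaks were among the strongest described here. Tcs5, part of the complex that makes the N6-threonylcarbamoyl modification next to the anticodon, ranked 31 with a mean replicate rank of 35 ± 16.4 (SD, n = 3). RluA-1, a member of the pseudouridine synthase family, ranked 55 with a mean of 62 ± 6.56, and Trmt6, a subunit of the tRNA m1A methyltransferase, ranked 157 with a mean of 174 ± 63.1. The peak near Trmt61, the other subunit of that enzyme, ranked 763 with ranks of 848 and 1286 in replicates 1 and 3 and no entry in replicate 2, and it was 9 bp from the TSS of RpL34a. Archease, a cofactor of the tRNA ligase, ranked 2721 with ranks of 2580, 3176 and 5195. The peaks of Tcs5, RluA-1 and Trmt6 were far stronger than any tRNA peak. Those of Archease and ThrRS, in the range of ranks of the tRNA peaks, were outside the 4261 strongest entries of replicate 3 or without an entry there. That of SerRS, also in this range, ranked 1893 in replicate 3 and was supported by all 3 replicates.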

How the data were processed

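Per the labels and file records, calling was done on each of 3 replicates and on their pooled reads, in the dm6 assembly, with 1 control for all, and IDR gave the thresholded list. Aligner and caller are not given in the sources used here. Each deposited score is the authors' signal value, whose scale is not stated, and it served to rank entries inside a list. The −log10 q-value deposited by the authors had a ceiling of 3.89 in the pooled list and served only for counts at 0.05. Each list ended at 30000 entries, so its length carries no information, and depth is unknown. Collection at 12 to 24 hours was taken from the source name, since the age field holds no embryonic age.

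Gene models came from Ensembl 115 (BDGP6.54), with 19607 TSSs of 13945 protein-coding genes, and sequence from RefSeq release 6, which shares coordinates with dm6. Background shares are those of consecutive 273 bp windows. No p-value was computed, as the series has 1 group. Intervals are Wilson 95% and cover counting error only. Python 3.11.15, NumPy 2.4.6, pandas 2.3.3, SciPy 1.17.1 and matplotlib 3.10.9 were used, and the counting was tested on simulated data.

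The members, the gene lists and the motifs were chosen with earlier results of these data known. Of the pathway lists, 0, 1, 3 and 10 listed symbols of the cytoplasmic synthetases, the mitochondrial synthetases, the polymerase factors and the processing genes had no match. The rule for named genes took the 12 strongest tRNA peaks supported by all 3 replicates, the 6 largest clusters, the 3 clusters with the most peaks, the 2 weakest peaks and the 2 strongest entries outside the thresholded list, and up to 6 members of each other list. Its first part found none, and as no cluster held more than 1 peak the part on clusters with most peaks chose none. All 10 peaks are therefore named, and the sequences of 4 of them are shown, a choice made after their values were seen, as were tRNA:Thr-AGT-1-2 and tRNA:Tyr-GTA-1-8. The alternatives were other windows, TSS limits and cluster gaps, stronger or supported peaks, single-copy genes and leaving out each replicate.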

Additional observations from a re-analysis of the deposited data

How the results depend on the processing

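The 11 tRNA genes, 10 peaks and 10 clusters with a thresholded peak depended on the distance allowed, on peak strength and on the replicates. Genes numbered 7 at 50 bp, 26 at 250 bp and 32 at 500 bp. Peaks numbered 19 and 23 and clusters 18 and 22 at 250 and 500 bp. Among the stronger 2130 thresholded peaks each count was 2, and with pooled entries of q-value 0.05 or less the counts were 28 genes, 28 peaks and 21 clusters. Among peaks supported by all 3 replicates each was 0. When peaks had to be supported by both remaining replicates, leaving out replicates in turn gave 0 to 8 genes, 0 to 7 peaks and 0 to 7 clusters. The 0 came without replicate 1 and without replicate 2, as it had to, since replicate 3 supported none of the tRNA peaks. The 8 came without replicate 3.

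The mean share over replicates (3.45%) became 0% for the 1000 strongest entries, 13.2% at a q-value of 0.05, 8.62% at 250 bp and 11.1% at 500 bp, and 1.9 to 5% with 1 replicate left out. Isotypes (7) became 14 at 250 bp and 0 with support by all replicates. Peaks near a TSS (2) became 0 at 250 bp, 5 at 1000 bp and 0 with support by all replicates. The median summit position (9 bp) became -73 bp at 250 bp, where it changed sides. Mitochondrial synthetases (0) became 1 at 1000 bp, and processing genes (5) became 3 with support by all replicates. Cluster gaps of 500 bp, 1 kb and 5 kb gave 196, 174 and 144 clusters, with 10 marked in each case.

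Ratios to the genome windows were added after seeing the data. The thresholded ratio (4.38) became 2.22 for single-copy genes and 0 to 4.91 with 1 replicate left out. The 0 came without replicate 1 and without replicate 2, again because replicate 3 supported none of the tRNA peaks. The ratio of replicate 3 (0.398) became 0 for single-copy genes. It was 1.72 and 1.37 at 250 and 500 bp, above the windows but within the Wilson interval of the ratio at 100 bp. The causes were not tested. No paired analysis was possible because the series has 1 group. A replicate left out had still shaped the thresholded list. With unknown depth, an absent entry in replicate 3 does not show that the protein was absent.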
